A study of Mus musculus with 12 samples.

Results

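Expression of 10 genes of the inflammasome and NOD pathways was followed in mouse neutrophils: the sensors *Nlrp3*, *Nlrc4* and *Aim2*, the adaptor *Pycard*, the caspases *Casp1* and *Casp4*, the pore-forming *Gsdmd*, the peptidoglycan receptors *Nod1* and *Nod2*, and their kinase *Ripk2*. Their rows were found by gene symbol among the 28944 transcript clusters tested, of which 21789 carried the symbol of a single gene. The list itself was drawn up with earlier results of these data known, so that its counts are descriptions. A transcript cluster is the set of probes that reads the transcripts of a gene. Of the 10 genes, 9 were named by the annotation of the array platform, and *Ripk2* was named through a table of the study, from which no value was taken. Each of the 10 had 1 cluster.

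Neutrophils from the bone marrow of *Card9*-/- or wild-type C57BL/6 mice spent 4 h either on immobilized immune complexes (IC), made of human serum albumin and antibodies against it, or on the albumin alone as the control surface. The 4 groups, *Card9*-/- IC, wild-type IC, *Card9*-/- control and wild-type control, were each prepared in 3 experiments done at separate time points, giving 12 arrays with 3 per group. The mutation was in the germline and therefore in every cell of the mouse, the strain had been backcrossed to C57BL/6, and the cells were obtained on a density gradient, with Ly6G+ given as their surface marker. Cells that stuck to the surface and cells that did not were pooled for RNA. Ages and the number of animals behind each sample are not given for the single arrays. The p-values rest only on how far the differences between groups vary among these experiments. CARD9 is an adaptor protein that couples Syk-linked receptors of myeloid cells to NF-κB, and the comparisons ask which part of the response to IC depends on it.

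Inflammasomes are cytoplasmic complexes in which a sensor, often through the adaptor ASC encoded by *Pycard*, activates caspase-1, which matures IL-1β and IL-18 and cleaves gasdermin D into a membrane pore. Caspase-11, the mouse protein encoded by *Casp4*, cleaves gasdermin D after it binds cytosolic lipopolysaccharide, and the lytic death that follows is called pyroptosis. NOD1 and NOD2 instead bind peptidoglycan fragments and signal through the kinase RIPK2 to NF-κB, while transcription of several inflammasome genes, *Nlrp3* first among them, is known to depend on a priming signal through NF-κB.

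Because priming is a transcriptional step, the 250 bases before the start sites of the 3 genes with the lowest adjusted p in *Card9*-/- cells on IC are shown, with matches to the κB consensus in capitals. The sequences are from RefSeq on GRCm38.p6, read 5′ to 3′ on the plus strand, on which these 3 genes lie. The *Casp4* sequence is chr9:5308599-5308848, the *Nlrp3* sequence, from the upstream one of its listed starts, is chr11:59541319-59541568, and the *Nod2* sequence is chr8:88647097-88647346.
*Casp4*: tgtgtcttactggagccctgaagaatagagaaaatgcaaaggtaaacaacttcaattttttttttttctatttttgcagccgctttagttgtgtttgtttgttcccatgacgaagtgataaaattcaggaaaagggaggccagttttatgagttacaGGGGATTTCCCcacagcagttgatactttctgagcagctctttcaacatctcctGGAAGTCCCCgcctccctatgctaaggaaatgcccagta
*Nlrp3*: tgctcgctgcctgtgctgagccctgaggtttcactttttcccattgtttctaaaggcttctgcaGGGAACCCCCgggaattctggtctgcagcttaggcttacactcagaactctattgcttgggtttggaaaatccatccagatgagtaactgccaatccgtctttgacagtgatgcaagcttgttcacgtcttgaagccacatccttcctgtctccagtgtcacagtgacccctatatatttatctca
*Nod2*: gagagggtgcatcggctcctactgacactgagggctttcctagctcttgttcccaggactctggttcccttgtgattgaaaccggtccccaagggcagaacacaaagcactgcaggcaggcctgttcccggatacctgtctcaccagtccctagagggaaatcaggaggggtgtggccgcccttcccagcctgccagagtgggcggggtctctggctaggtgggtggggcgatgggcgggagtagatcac

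*Casp4* held 2 overlapping κB matches at 93 to 83 bases and a separate match at 39 to 30 bases before the start, and a start listed 11 bases further on shares nearly all of this window. *Nlrp3* held a match at 186 to 177 bases before the start shown and none at its other listed start. *Nod2* had no match in its window. Promoters were found for 8 of the 10 genes, all but *Gsdmd* and *Ripk2*, with 11 start sites in all. The κB consensus was present on either strand at 3 of the 11, which are both starts of *Casp4* and 1 of *Nlrp3*, while 7.25% of 32851 mouse promoters of the same length held it. The AP-1 motif TGANTCA was at 0 of the 11 starts and in 6.75% of all promoters, and the interferon response motif, TTTC followed by any 2 bases and TTTC again, was at 0 of the 11 and in 2.98%. These matches describe the sequence and were not tested for binding.

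The labels were checked by *Card9* itself, which had log2 signals of 6.42, 6.01 and 5.56 on the *Card9*-/- IC arrays of experiments 1, 2 and 3, against 8.08, 8.21 and 8.50 on the wild-type IC arrays (difference −2.27, adjusted p = 0.00491 by limma). Between the controls it was −2.52 (adjusted p = 0.00229). The mean log2 signal of 10 neutrophil markers lay between 12.12 and 12.45 on all 12 arrays. That of 6 B cell markers was 8.17, 5.36 and 9.11 on the *Card9*-/- IC arrays and 6.61, 5.31 and 8.51 on the wild-type IC arrays, with all 6 higher in *Card9*-/- cells on average, and its part in the results was not tested. The 7 markers of eosinophils, basophils and mast cells were also all higher on average in *Card9*-/- cells on IC (median 0.45), and their mean signal was 7.44, 7.40 and 8.66 on the *Card9*-/- IC arrays, 7.57, 7.04 and 7.53 on the wild-type IC arrays, 7.53, 7.55 and 8.68 on the *Card9*-/- control arrays and 7.79, 7.31 and 7.59 on the wild-type control arrays. They stood highest on the *Card9*-/- arrays of experiment 3, and their part in the results was not tested either. In bulk RNA, fewer cells of a type and less RNA per cell cannot be told apart. Array medians ran from 5.70 to 5.75 in experiment 1, 5.86 to 5.93 in experiment 2 and 5.27 to 5.39 in experiment 3, so that all comparisons were made within experiments.

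*Nod2*, *Nlrp3* and *Casp4* were the 3 genes that stood lowest in *Card9*-/- cells on IC relative to their spread, at 0.557, 0.509 and 0.460 times the wild-type level, and each was lower in 3 of 3 experiments. None of the 10 genes passed an adjusted p of 0.05 in this or any of the other 4 comparisons, so no direction given here for them is a called change. Of all clusters, 0.162% passed in *Card9*-/- against wild-type cells on IC, 0.038% passed on the control surface, and 0.0% passed in each of the IC responses and in the difference between them. For the wild-type response this share rests on the experiments used: 51 clusters passed without experiment 1, of which 50 were lower on IC, 1 passed without experiment 2 and 8 without experiment 3, and *Nlrp3* and the other 9 genes were not among those called. At an unadjusted p under 0.05, 7 of the 10 genes were lower in *Card9*-/- cells on IC (*Nlrp3*, *Nlrc4*, *Casp1*, *Casp4*, *Nod1*, *Nod2* and *Ripk2*) and 0 were higher, where 5.1% of all clusters were lower and 4.03% higher in this way. The median log2 difference of the 10 was −0.68, beside −0.014 over all clusters, and by experiment it was −0.81, −0.78 and −0.14.

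**Figure D1:**
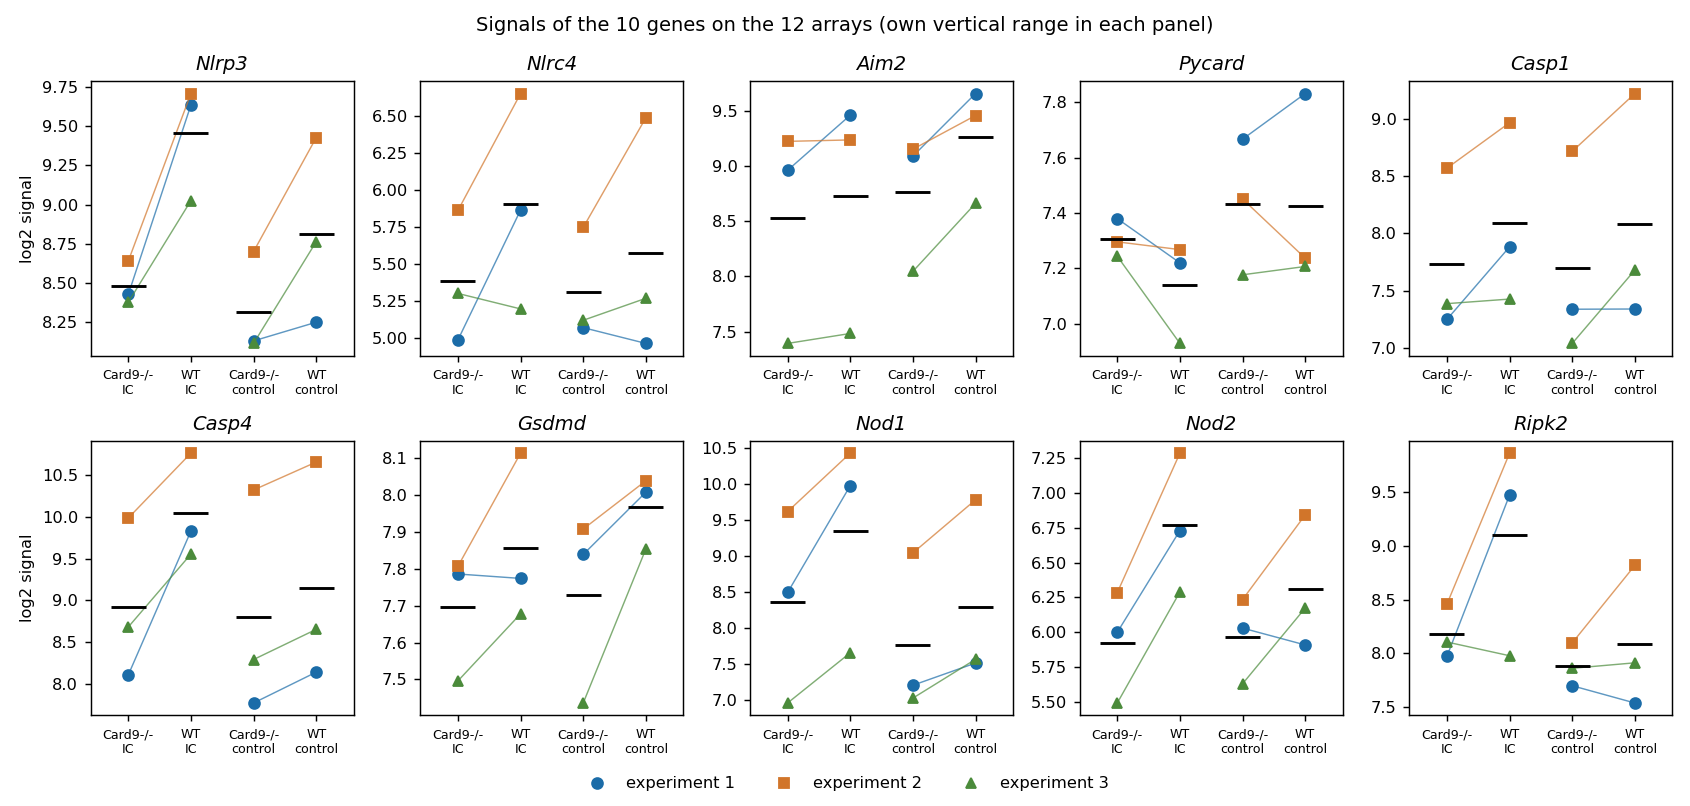
Log2 signal of each of the 10 genes on the 12 arrays, by group from left to right (*Card9*-/- IC, wild-type IC, *Card9*-/- control, wild-type control), with a symbol for each experiment, black bars for group means, thin lines between the genotypes of an experiment and a vertical range of its own in each panel. On IC, the 3 *Card9*-/- arrays of *Nlrp3* (8.38 to 8.64) and of *Nod2* (5.49 to 6.285) lie below the 3 wild-type arrays (9.03 to 9.71 and 6.290 to 7.29).

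Among the sensors, *Nlrp3*, which responds to membrane damage and ion fluxes, had log2 signals of 8.43, 8.64 and 8.38 in *Card9*-/- cells on IC, against 9.64, 9.71 and 9.03 in wild-type cells on IC, in experiments 1, 2 and 3. The *Card9*-/- and wild-type values on IC did not overlap. On the control surface it had 8.13, 8.70 and 8.12 in *Card9*-/- cells, against 8.25, 9.43 and 8.76 in wild-type cells, and these ranges did overlap. *Card9*-/- cells on IC stood within the range of the control arrays, whereas wild-type cells on IC were above their own control in each experiment. On IC the genotypes differed by −0.97 (95% CI −1.39 to −0.56, adjusted p = 0.0842 by limma), and on the control surface by −0.50 (adjusted p = 0.954). The response to IC was 0.17 in *Card9*-/- cells (adjusted p = 1.00) and 0.64 in wild-type cells (adjusted p = 0.437), of which experiment 1 alone gave 1.38 and the others 0.28 and 0.26.

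*Nlrc4*, which with the NAIP proteins detects flagellin and secretion-system proteins, had the lowest place on the array of the 10, with 47.6% of all clusters below its mean signal, against 61.0% to 89.9% for the other genes. Its log2 signals were 4.98, 5.86 and 5.30 in *Card9*-/- cells on IC and 5.87, 6.65 and 5.19 in wild-type cells on IC. The controls had 5.07, 5.75 and 5.12 in *Card9*-/- cells and 4.96, 6.49 and 5.27 in wild-type cells. The groups overlapped, and the array of experiment 2 was the highest in every group. The *Card9*-/- value on IC was below the wild-type value in experiments 1 and 2 but above it in experiment 3 (mean −0.52, adjusted p = 0.447), and the response to IC was 0.07 in *Card9*-/- cells and 0.33 in wild-type cells, with adjusted p = 1.00 and 0.601.

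*Aim2*, a sensor of cytosolic DNA, had 8.96, 9.22 and 7.39 in *Card9*-/- cells on IC and 9.46, 9.24 and 7.48 in wild-type cells on IC, and its control values were 9.09, 9.15 and 8.05 in *Card9*-/- cells and 9.66, 9.46 and 8.66 in wild-type cells. Experiment 3 was the lowest in every group. Wild-type cells had less *Aim2* on IC than on the control surface in 3 of 3 experiments, by a mean log2 difference of −0.53 (95% CI −0.96 to −0.10, adjusted p = 0.455) that experiment 3 set in large part, with −1.18 against −0.20 and −0.22 in experiments 1 and 2. In *Card9*-/- cells the response was −0.24 (adjusted p = 1.00). The genotypes differed by −0.20 on IC (95% CI −0.63 to 0.23, adjusted p = 0.824) and by −0.50 on the control surface (adjusted p = 0.954).

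*Pycard*, the adaptor that links pyrin-domain sensors to caspase-1, was the only 1 of the 10 with a higher mean in *Card9*-/- cells on IC. Its log2 signals on IC were 7.38, 7.30 and 7.24 in *Card9*-/- cells and 7.22, 7.27 and 6.93 in wild-type cells, while the control surface gave 7.67, 7.45 and 7.18 with *Card9*-/- cells and 7.83, 7.24 and 7.21 with wild-type cells. Its 12 values spanned less than those of any sensor. The genotypes differed by 0.17 on IC, in the same direction in 3 of 3 experiments but with a 95% CI of −0.11 to 0.44 (adjusted p = 0.758), and the control surface gave 0.01 (adjusted p = 0.998). On IC, *Card9*-/- cells differed from their control by −0.13 and wild-type cells by −0.29 (adjusted p = 1.00 and 0.507).

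The caspase genes lie side by side on chromosome 9. *Casp4* had log2 signals of 8.11, 9.98 and 8.68 in *Card9*-/- cells on IC, against 9.83, 10.76 and 9.55 in wild-type cells on IC. The ranges overlapped, with experiment 2 high in all 4 groups, but within each experiment the *Card9*-/- array was lower, by log2 differences of −1.72, −0.78 and −0.87. The mean was −1.12 (95% CI −1.67 to −0.58, adjusted p = 0.131). On the control surface *Casp4* had 7.78, 10.32 and 8.30 in *Card9*-/- cells and 8.14, 10.65 and 8.66 in wild-type cells, a difference of −0.35 that was nearly the same in every experiment (−0.37, −0.33 and −0.36) and had an adjusted p = 0.954. The response to IC was 0.13 in *Card9*-/- cells and 0.90 in wild-type cells (adjusted p = 1.00 and 0.411), and the wild-type response was 1.69, 0.11 and 0.90 by experiment.

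*Casp1*, whose protein is the effector of the canonical inflammasomes, had 7.25, 8.57 and 7.39 in *Card9*-/- cells on IC and 7.88, 8.97 and 7.43 in wild-type cells on IC. Its control values were 7.34, 8.72 and 7.04 in *Card9*-/- cells and 7.34, 9.22 and 7.68 in wild-type cells. Experiment 2 was again the highest, as for *Casp4*, and the groups overlapped. *Casp1* was lower in *Card9*-/- cells by similar amounts on IC (−0.36, adjusted p = 0.530) and on the control surface (−0.38, adjusted p = 0.954), and its response to IC changed sign between experiments, with −0.09, −0.15 and 0.35 in *Card9*-/- cells (mean 0.04) and 0.54, −0.26 and −0.25 in wild-type cells (mean 0.01).

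*Gsdmd*, the pore former cut by both caspases, varied little. It had 7.79, 7.81 and 7.50 in *Card9*-/- cells on IC, 7.77, 8.11 and 7.68 on IC in the wild type, 7.84, 7.91 and 7.44 in *Card9*-/- controls and 8.01, 8.04 and 7.85 in wild-type controls. The difference between genotypes was −0.16 on IC (95% CI −0.39 to 0.07, adjusted p = 0.709) and −0.24 on the control surface (95% CI −0.47 to −0.01, adjusted p = 0.954), and the responses to IC were −0.03 and −0.11 in *Card9*-/- and wild-type cells.

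Of the peptidoglycan receptors, *Nod1* had the widest spread of the 10 genes, with log2 signals of 8.49, 9.62 and 6.96 in *Card9*-/- cells on IC, against 9.98, 10.44 and 7.66 in wild-type cells on IC. The control values were 7.20, 9.05 and 7.02 in *Card9*-/- cells and 7.51, 9.79 and 7.57 in wild-type cells. Arrays of experiment 3 were low on IC in both genotypes, at about the level of their controls. On IC the *Card9*-/- value was lower in 3 of 3 experiments at 0.500 times the wild-type level (95% CI of the log2 difference −1.78 to −0.22, adjusted p = 0.394), and on the control surface also in 3 of 3 (−0.53, adjusted p = 0.954). The mean response of *Nod1* to IC was 0.60 in *Card9*-/- cells (1.29, 0.58 and −0.07 by experiment, adjusted p = 1.00) and 1.07 in wild-type cells (2.47, 0.65 and 0.09, adjusted p = 0.438), and without experiment 1 it was 0.25 in *Card9*-/- cells and 0.37 in wild-type cells.

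*Nod2*, the receptor of muramyl dipeptide, had 6.00, 6.285 and 5.49 in *Card9*-/- cells on IC, against 6.73, 7.29 and 6.290 in wild-type cells on IC. The highest *Card9*-/- value and the lowest wild-type value were nearly equal, but the ranges did not overlap. The mean difference was −0.84 (95% CI −1.18 to −0.51), with −0.73, −1.002 and −0.80 in the experiments, and had the lowest adjusted p of the 10 genes (0.0677). The controls had a *Nod2* signal of 6.03, 6.24 and 5.63 in *Card9*-/- cells and 5.91, 6.84 and 6.17 in wild-type cells, which differed by −0.34 (adjusted p = 0.954) with experiment 1 in the opposite direction. The *Card9*-/- cells gave a response to IC of −0.04 (95% CI −0.37 to 0.29), with −0.03, 0.05 and −0.14 in the experiments, and the wild-type cells gave 0.46 (95% CI 0.13 to 0.79, adjusted p = 0.438), with 0.82, 0.44 and 0.12. On the *Card9*-/- IC arrays *Nod2* stood near *Card9* itself (6.42, 6.01 and 5.56), and whether *Nod2* lies above background there was not tested. Counted over the 10 genes, *Nlrp3* and *Nod2* had all *Card9*-/- arrays below all wild-type arrays on IC, which 1.03% of all clusters showed.

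*Ripk2*, the kinase shared by NOD1 and NOD2, had 7.97, 8.46 and 8.10 in *Card9*-/- cells on IC, against 9.48, 9.87 and 7.98 in wild-type cells on IC, and the control values were 7.70, 8.10 and 7.86 in *Card9*-/- cells and 7.54, 8.82 and 7.91 in wild-type cells. The difference between genotypes on IC was −1.51 and −1.41 in experiments 1 and 2 and 0.13 in experiment 3 (mean −0.93, adjusted p = 0.359). Wild-type cells followed the same course in their response to IC, with 1.94, 1.05 and 0.07 (mean 1.02, adjusted p = 0.438). In *Card9*-/- cells the response was alike in the experiments (0.28, 0.36 and 0.24, mean 0.29, adjusted p = 1.00).

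**Figure D2:**
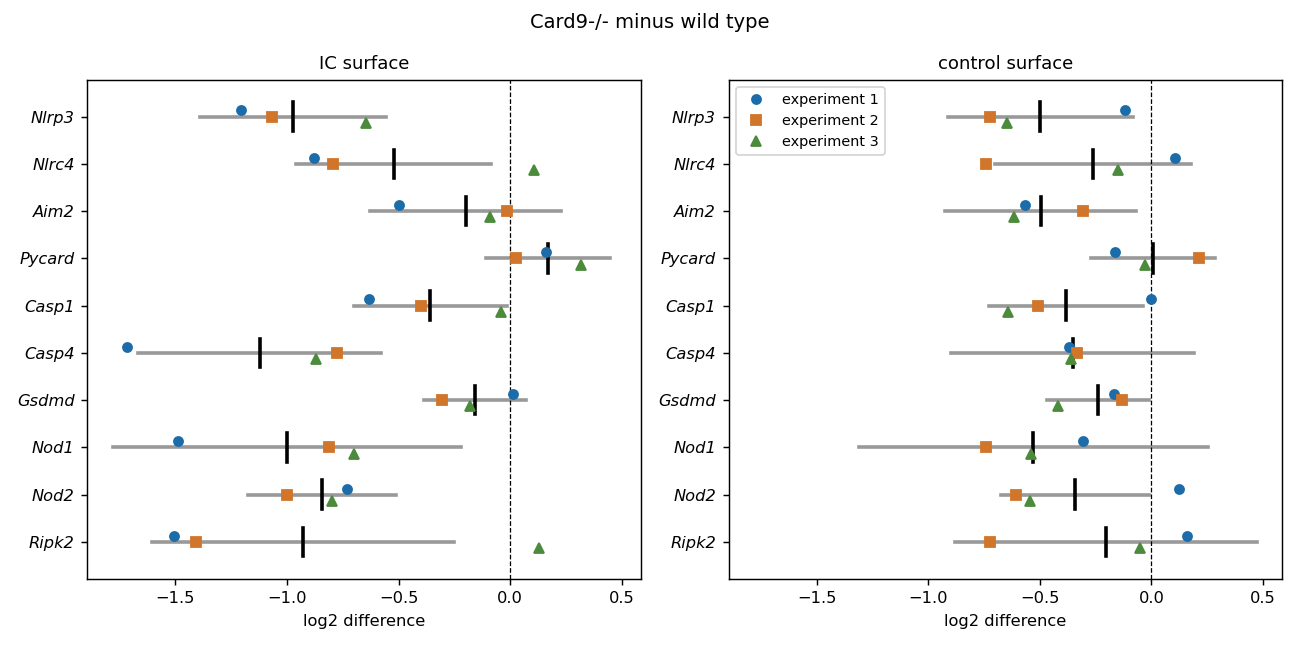
Log2 difference of *Card9*-/- minus wild-type cells for each gene, on the IC surface (left) and the control surface (right), with a symbol for each experiment, the mean as a black bar and its 95% confidence interval as a grey line. On IC 9 of the 10 means lie below 0, and *Ripk2* in experiment 3 (0.13) stands apart from its values in the other experiments (−1.51 and −1.41).

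Counted together, 9 of the 10 genes had a lower mean in *Card9*-/- cells on IC. Of these, *Nlrp3*, *Aim2*, *Casp1*, *Casp4*, *Nod1* and *Nod2* were lower in all 3 experiments, which makes 6 of 10 beside 15.4% of all clusters. On the control surface 9 of the 10 means were also lower in *Card9*-/- cells, and *Nlrp3*, *Aim2*, *Casp1*, *Casp4*, *Gsdmd* and *Nod1* were lower in all 3 experiments (6 of 10, beside 12.8% of all clusters). At an unadjusted p under 0.05, 5 were lower there, *Nlrp3*, *Aim2*, *Casp1*, *Gsdmd* and *Nod2*, beside 2.22% of all clusters. The median difference on the control surface was −0.35, beside 0.03 over all clusters, and by experiment it was −0.14, −0.56 and −0.48. *Nlrc4*, *Nod2* and *Ripk2* were higher in *Card9*-/- controls in experiment 1, *Pycard* had a mean difference of 0.01, and with no replicate block 0 of the 10 had an unadjusted p under 0.05. The mean signal of 7 monocyte and macrophage markers was 7.72, 7.91 and 7.65 on the *Card9*-/- IC arrays and 8.21, 8.28 and 7.42 on the wild-type IC arrays, lower in *Card9*-/- cells in experiments 1 and 2 and higher in experiment 3, as for *Ripk2* and *Nlrc4*. On average 5 of the 7 were lower and 2 higher in *Card9*-/- cells on IC, and their part in these values was not tested. The controls gave 7.59, 7.95 and 7.53 in *Card9*-/- cells and 7.87, 8.15 and 7.48 in wild-type cells.

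In response to IC, *Nlrp3*, *Casp4*, *Nod1*, *Nod2* and *Ripk2* were the 5 genes higher in all 3 experiments in wild-type cells, and they were also the 5 with a higher mean at an unadjusted p under 0.05. Of all clusters, 18.8% were higher in all 3 experiments and 5.18% were higher at that p. *Aim2* alone was lower in all 3 (12.3% of all clusters), and *Aim2* and *Pycard* were lower at an unadjusted p under 0.05 (4.41%). The adjusted p of the 10 genes ran from 0.411 to 0.986, and the median response of the 10 was 0.86, 0.14 and −0.0031 in experiments 1, 2 and 3, so that experiment 1 carried most of it. In *Card9*-/- cells 0 of the 10 genes had an unadjusted p under 0.05 (3.01% of all clusters), 1 was higher in all 3 experiments (*Ripk2*, beside 11.5% of all clusters), and the median response was 0.05.

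**Figure D3:**
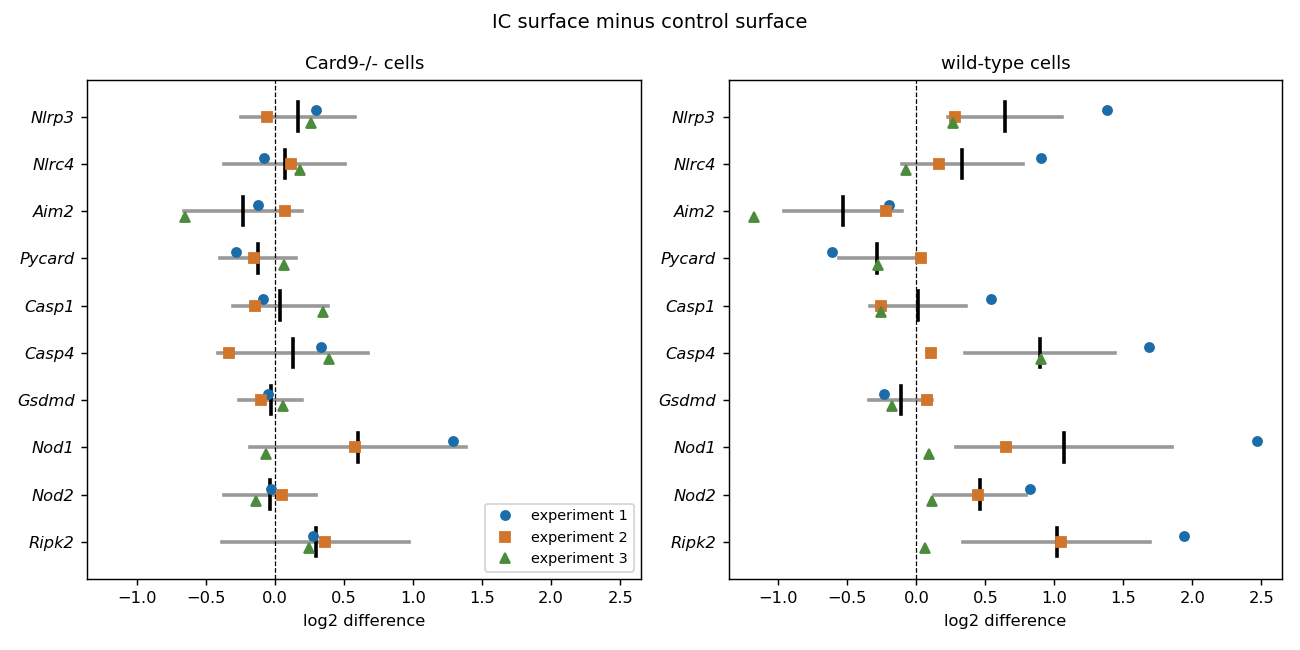
Log2 difference of IC minus control for each gene in *Card9*-/- and wild-type cells, with a symbol for each experiment, the mean as a black bar and its 95% confidence interval as a grey line. In wild-type cells *Nod1*, *Ripk2*, *Casp4* and *Nlrp3* have their highest value in experiment 1 (2.47, 1.94, 1.69 and 1.38). So do *Nlrc4*, *Nod2* and *Casp1* (0.91, 0.82 and 0.54) and *Aim2*, which is below 0 throughout (−0.20). In *Card9*-/- cells every interval includes 0.

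The difference between these responses, *Card9*-/- minus wild type, was tested directly and did not pass for any of the 10 genes (adjusted p = 0.999 for each). *Nod2* had a difference of −0.50 (95% CI −0.97 to −0.03) and was the 1 gene at an unadjusted p under 0.05, which 3.68% of all clusters reached. *Casp4* followed with −0.77 (95% CI −1.54 to 0.0015) and *Nlrp3* with −0.48 (95% CI −1.06 to 0.11), made up of −1.09, −0.34 and −0.00089 by experiment. *Nlrp3*, *Casp4*, *Nod1* and *Nod2* were lower in all 3 experiments (4 of 10, beside 16.6% of all clusters). *Ripk2* had −0.72 (95% CI −1.68 to 0.23), *Nod1* −0.47, *Nlrc4* −0.26, *Casp1* 0.03, *Gsdmd* 0.08, *Pycard* 0.16 and *Aim2* 0.30. All of these comparisons use the same 12 arrays and share groups, so they are not separate evidence.

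Of 50 further genes of these pathways, 44 were measured. In *Card9*-/- against wild-type cells on IC, *Ninj1* was the 1 of the 44 that passed, where 0.162% of all clusters did, and in the other 4 comparisons 0 passed. *Ninj1*, whose protein ruptures the plasma membrane late in lytic death, had log2 signals of 9.89, 9.82 and 10.14 in *Card9*-/- cells on IC, against 10.85, 10.81 and 11.01 in wild-type cells on IC. The 2 groups did not overlap, and the differences were close to each other in experiments 1, 2 and 3, at −0.95, −0.997 and −0.88. *Ninj1* fell to 0.521 times the wild-type level (log2 difference −0.94, 95% CI −1.22 to −0.67, adjusted p = 0.0175 by limma). The call was lost when any 1 of the experiments was left out, with a log2 difference of −0.97 to −0.91 and an adjusted p = 0.0553 to 0.329. On the control surface *Ninj1* had 9.53, 9.97 and 10.19 in *Card9*-/- cells and 10.30, 10.66 and 10.61 in wild-type cells (−0.63, lower in 3 of 3 experiments, adjusted p = 0.360). Its response to IC was 0.05 in *Card9*-/- cells and 0.37 in wild-type cells (adjusted p = 0.438 in wild-type cells), and the difference of the responses, −0.31, did not pass (adjusted p = 0.999).

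Among the other sensors and their partners, 0 of 15 measured genes passed in any comparison. *Nek7*, whose protein binds NLRP3 and is needed for its activation, had 9.11, 9.37 and 7.82 in *Card9*-/- cells on IC, 8.68, 8.85 and 7.27 on IC in the wild type, 9.38, 9.35 and 7.97 in *Card9*-/- controls and 9.03, 9.28 and 8.02 in wild-type controls. Wild-type cells had less of it on IC in 3 of 3 experiments (−0.51, adjusted p = 0.292), and the difference of the responses was 0.37 (adjusted p = 0.999). *Pstpip1*, which encodes a partner of pyrin, had a response of −0.17 in *Card9*-/- cells (adjusted p = 1.00). In wild-type cells it was −0.22 (adjusted p = 0.586 by limma), and it was lower in 3 of 3 experiments in both genotypes. *Trim30a*, known as a negative regulator of NLRP3, differed between *Card9*-/- and wild-type controls by −0.42 (adjusted p = 0.954). In *Card9*-/- against wild-type cells on IC, the median of the 15 genes was 0.07, and by limma 2 were higher and 1 lower at an unadjusted p under 0.05, beside 4.03% and 5.1% of all clusters. The higher ones were *Nek7* (0.50, higher in 3 of 3 experiments, adjusted p = 0.120) and *Brcc3*, which encodes a deubiquitinase of NLRP3 (0.24, adjusted p = 0.512). The lower one was *Mefv*, the gene of pyrin, with log2 signals of 6.92, 8.21 and 7.11 in *Card9*-/- cells on IC, against 9.29, 9.98 and 7.96 in wild-type cells on IC (−1.67, lower in 3 of 3, adjusted p = 0.158). Between the controls *Mefv* differed by −0.70, also lower in 3 of 3 experiments (adjusted p = 0.954 by limma). Its response to IC was 0.07 in *Card9*-/- cells and 1.03 in wild-type cells, the latter made up of 2.62, 0.33 and 0.15 by experiment.

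Of the execution genes and substrates, 10 were measured, and 9 had a lower mean in *Card9*-/- cells on IC, with a median of −0.32. *Ninj1* was the 1 that passed there. At an unadjusted p under 0.05 by limma, 4 were lower and 1 higher, beside 5.1% and 4.03% of all clusters. The 4 were *Ninj1*, *Il18*, *Gbp5* (−1.21, lower in 3 of 3 experiments, adjusted p = 0.242) and *Gbp7* (−0.33, adjusted p = 0.394). *Serpinb1a* was higher (0.28, in 3 of 3 experiments, adjusted p = 0.520). The substrates were *Il1b*, with a difference of −0.32 (adjusted p = 0.788), and *Il18*, with −0.40 (adjusted p = 0.268). *Gbp5* and *Gbp7* are of a family of interferon-induced GTPases. Between *Card9*-/- and wild-type controls 8 of the 10 means were also lower, with a median of −0.22. At an unadjusted p under 0.05 by limma, the same 4 genes were lower there, beside 2.22% of all clusters. In the controls *Gbp5* differed by −0.75, *Gbp7* by −0.30 and *Il18* by −0.28 (adjusted p = 0.954 for each).

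All 19 listed genes of the NOD branch were measured and 0 passed by limma, with 0 higher and 3 lower in *Card9*-/- cells on IC at an unadjusted p under 0.05, beside 4.03% and 5.1% of all clusters. The 3 were *Slc15a3* (−0.73, adjusted p = 0.0670), *Tnfaip3* (−1.86, adjusted p = 0.0951) and *Birc3*, which encodes an inhibitor of apoptosis protein (−0.85, adjusted p = 0.207), each lower in 3 of 3 experiments. On the control surface 3 were also lower at that p, *Slc15a3* among them, beside 2.22% of all clusters. The mean was lower in *Card9*-/- cells for 15 of the 19 on IC (median −0.09) and for 16 on the control surface (median −0.14). *Slc15a3* and *Slc15a4* encode transporters that carry bacterial dipeptides out of endosomes. *Slc15a3* had a response to IC of 0.38 in wild-type cells (adjusted p = 0.438) and differed by −0.45 between *Card9*-/- and wild-type controls (adjusted p = 0.931). *Slc15a4* had lower values on IC in 3 of 3 experiments in both genotypes, with −0.35 in *Card9*-/- cells (adjusted p = 1.00) and −0.55 in wild-type cells (adjusted p = 0.416). *Tnfaip3*, which encodes the NF-κB inhibitor A20, had 8.21, 8.60 and 8.91 in *Card9*-/- cells on IC, against 10.28, 10.84 and 10.18 in wild-type cells on IC, and the controls had 8.24, 9.54 and 8.74 in *Card9*-/- cells and 7.87, 10.75 and 9.62 in wild-type cells. Its responses differed by −1.29 (−2.44, −1.03 and −0.40 by experiment, adjusted p = 0.999). The deubiquitinase genes *Cyld* and *Otulin* had responses of −0.20 and 0.14 in *Card9*-/- cells (adjusted p = 1.00 for both). In wild-type cells their responses were −0.23 and 0.04 (adjusted p = 0.629 and 0.918 by limma).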

How the data were processed

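RNA of neutrophils (150 ng per sample) was hybridized to Affymetrix mouse gene arrays, 1 per sample. The authors deposited log2 signals per transcript cluster, with higher values for more RNA. The method of summarization and normalization was not given in the sources used here. Of 35556 rows, 6612 were left out as control rows and 28944 clusters were tested without a filter on signal. The control rows were recognized by their unbroken run of low identifiers, none of which had an annotation. Whether other control rows remain among the clusters was not tested. Of these, 476 with values identical to another cluster were kept. No detection calls or depths come with these values, and the 3 arrays per group limit the precision. Samples were grouped by their labels.

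A linear model of the 4 groups and the 3 experiments, as a fixed block, was fitted by lmFit and moderated by eBayes (limma 3.58.1 in R 4.3.3, 6 residual and 5.40 prior degrees of freedom). Two-sided p-values were adjusted over all clusters by the Benjamini-Hochberg method, and the threshold was 0.05. The labels give the experiment of each array, and the pairing by experiment was checked: deviations from the group means correlated at 0.671 to 0.867 for arrays of the same experiment and at −0.727 to 0.355 for others.

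The 10 genes and the pathway and marker lists were chosen with earlier results of these data known. All 10 genes are named throughout, and of the pathway lists those past the threshold. Where none passed, up to 4 per comparison are named, with the smallest p among those with 1 direction in all experiments. *Il1b* and *Il18*, as substrates, and *Brcc3*, *Mefv*, *Birc3*, *Gbp5* and *Serpinb1a* were added after their values were seen. So were the values of *Nek7*, *Slc15a3*, *Tnfaip3* and *Gbp7* between genotypes on IC. *Ripk2* is absent from the platform annotation used here and was named through a table of the study. Listed genes that were not matched to a single-gene cluster, among them *Naip1*, *Nlrp12*, *Ifi204* and *Gbp2*, are not reported here. The alternatives were no block, a random block, median centring, quantile normalization, clusters above the median signal, the arrays of the groups compared alone, no moderation, limma-trend and leaving out each experiment. The fit was tested on simulated data. Promoters were searched on both strands, and figures drawn, in Python 3.11.15 (numpy 2.4.6, pandas 2.3.3, matplotlib 3.10.9).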

Additional observations from a re-analysis of the deposited data

Results flagged for a closer look

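*Naip6*, of a family of near-identical genes whose proteins detect bacterial ligands for NLRC4, was singled out because its response to IC had opposite directions in the genotypes. It was higher on IC in 3 of 3 experiments in *Card9*-/- cells (0.05, 0.04 and 0.15) and lower in 3 of 3 in wild-type cells (−0.18, −0.14 and −0.69). The mean response was 0.08 in *Card9*-/- cells (95% CI −0.28 to 0.44) and −0.33 in wild-type cells (95% CI −0.69 to 0.02), and both intervals include 0. The share of all clusters with such opposite directions was not counted. The difference of the responses, *Card9*-/- minus wild type, was 0.41 (95% CI −0.09 to 0.92) and did not pass the test of the difference itself (adjusted p = 0.999 by limma). Log2 signals were 7.10, 7.20 and 6.23 in *Card9*-/- cells on IC, 6.52, 7.32 and 5.62 in wild-type cells on IC, 7.05, 7.16 and 6.08 in *Card9*-/- controls and 6.69, 7.46 and 6.31 in wild-type controls. Its probes may read related *Naip* genes too, which was not tested.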

How the results depend on the processing

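Over the 50 differences of the 10 genes, 11 alternatives gave 535 values, of which 515 kept their direction and side of the threshold, 13 changed direction and 7 came past the threshold. Averaging several clusters of a gene was not run because each gene has 1, and *Nlrc4* has no value among clusters above the median signal. The cause of the changes below was not tested, beyond the smaller number of arrays in fits that leave some out.

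Calls appeared only in *Card9*-/- against wild-type cells on IC: 2 with the experiment as a random replicate block (*Nlrp3*, adjusted p = 0.0319, and *Nod2*, 0.0272), 4 with the arrays of these groups alone (*Nlrp3* and *Nod2*, 0.0402 each, *Casp4* and *Nod1*, 0.0433 each), and 0 to 1 on leaving out an experiment (*Ripk2*, without experiment 3). Over all clusters, the calls in this comparison were 47, with 105 for the random replicate block, 173 for the arrays of these groups alone, 22 with median centring, 0 without moderation or with no replicate block, and 3 to 116 on leaving out an experiment. Between the controls they were 11, with 0 without moderation, 7 from their arrays alone, 1 with no replicate block and 2 to 7 on leaving out an experiment. For the wild-type response they were 0, with 7 for the random replicate block and 51, 1 and 8 without experiments 1, 2 and 3. With no replicate block, 0 of the 10 were called in any comparison.

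At an unadjusted p under 0.05, the count of genes in *Card9*-/- against wild-type cells on IC was 7, with 3 without moderation, 2 with no replicate block and 3 to 7 on leaving out an experiment. On the control surface it was 5, with 1 without moderation, 0 with no replicate block and 1 to 4 on leaving out an experiment. For the wild-type response it was 7, with 4, 1 and 1 to 7 in the same order, the 1 being without experiment 1. For the *Card9*-/- response it was 0, with 2 from the arrays compared alone and 0 to 1 on leaving out an experiment. For the difference of the responses it was 1, with 0 without moderation, with median centring and with no replicate block, 2 with limma-trend, and 0 to 2 on leaving out an experiment. The share of all clusters at that p was counted only in the fit used for the results above. Whether the counts under the alternatives depart from such a share was therefore not assessed.

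Of the values that changed direction, all but 3 came from leaving out an experiment. *Casp1* had a wild-type response of −0.0431 with median centring and −0.255 to 0.145 on leaving out an experiment, a *Card9*-/- response of −0.118 to 0.130, and a difference of the responses of −0.0129 with quantile normalization and −0.262 to 0.355 on leaving out an experiment. The *Card9*-/- response was −9.5e-05 to 0.362 for *Casp4*, −0.0769 to 0.0038 for *Gsdmd* and −0.0843 to 0.0101 for *Nod2*, and the difference of the responses was −0.519 to 0.102 for *Nlrc4*. Between controls of the genotypes, *Pycard* had −0.0475 with median centring and −0.0971 to 0.0923 on leaving out an experiment, and *Ripk2* had −0.387 to 0.0552.

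*Ninj1* in *Card9*-/- cells on IC was also not called without moderation (adjusted p = 0.259) or with no replicate block (adjusted p = 1.00), and its adjusted p was 0.00337 to 0.0405 under the alternatives that kept the call. No measure of background came with the values used here, so whether *Nlrc4*, *Nod2* or *Il18* lies above it was not tested. In the same comparison *Slc15a3* and *Tnfaip3* passed with the random replicate block (adjusted p = 0.0272 and 0.0319), and *Mefv* and *Tnfaip3* with the arrays of these groups alone (0.0402 and 0.0150).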

Other observations

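Within experiments, *Nlrp3* varied together with *Nod2* (Pearson r = 0.927), *Casp4* (0.924) and *Nod1* (0.895), and against *Pycard* (−0.729). *Nlrc4* and *Ripk2* had r = 0.930, and *Pycard* had −0.845 with *Nod1* and −0.730 with *Casp4*. These are correlations over the 12 arrays after the mean of each experiment was taken away, and the points share groups and experiments. Among single-gene clusters above the median signal, those most like *Nlrp3* by the same measure were *Ndufaf7* (0.992), *Irf5* (0.978), *Tnfaip2* (0.976), *Il18* (0.971) and *Tlr2* (0.969). *Irf5* encodes a transcription factor of inflammatory cytokine genes, *Il18* a substrate of caspase-1 and *Tlr2* a receptor of bacterial lipoproteins. This list and the next hold only the genes with the highest r, and a shared function was not tested for either. Those most like *Nod2* were *Slc9a3r1* (0.976), *Rab11fip1* (0.965), *Stx6* (0.956), *Map2k3* (0.950), which encodes a kinase upstream of p38, and *Traf1* (0.949), a target and regulator of NF-κB signalling.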
